A study of Mus musculus with 60 samples.

Results

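The autophagy and vacuolar ATPase genes of mouse striatum were taken from the deposited gene table by their symbols. They were the genes whose symbol begins with Atg and a digit, Gabarap, Map1lc3, Ulk, Wipi, Lamp or Atp6v, together with Rb1cc1, Becn1, Sqstm1 and Atp6ap1. The rule found 38 of the 9066 genes, with 537 of the 114691 exon rows; 22 belong to the autophagy machinery, 14 to the proton pump and 2 encode proteins of the lysosome membrane. All 38 averaged at least 10 normalised reads per mouse and entered the gene fits for phenotype, sex and their interaction, and 33 averaged at least 500. The test of exon usage covered 35 of them. Both tables come from polyA RNA-Seq of striatum that was dissected by hand from HS-CC mice, an outbred stock formed from inbred founder strains, which descended from generations bred selectively for their response to haloperidol. One library was made from each of 60 mice, namely 13 female and 17 male non-responders and 15 female and 15 male responders for catalepsy, the lasting immobility that haloperidol can cause. The labels give neither an age nor a treatment, and no founder genotype was used here, so that all mice share the stock and the tissue and differ by sex and phenotype only as far as the labels say.

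Autophagy encloses cytoplasm and damaged organelles in a double membrane, the autophagosome, which fuses with the lysosome. The ULK1 kinase complex starts the process, a lipid kinase complex with Becn1 marks the membrane, and a conjugation system resembling that of ubiquitin couples proteins of the ATG8 family to the lipid of the growing membrane, where receptors such as Sqstm1 deliver their cargo. The vacuolar ATPase acidifies the lysosome; its V1 sector hydrolyses ATP in the cytosol and turns a rotor of the membrane sector V0 that carries the protons, and in neurons the same pump also fills synaptic vesicles with transmitter.

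Many lysosomal genes carry the CLEAR element, a sequence bound by the transcription factor TFEB that holds the letters CACGTG, and the promoters below are shown because they hold these letters in genes whose values are compared further on. A promoter of 300 bases, from 250 before the annotated start to 50 bases from it, was found in RefSeq (GRCm38.p6) for 29 of the 38 genes. CACGTG, which reads the same on both strands, occurred in 7 of these 29 genes (24.1%), against 12.1% of the 6485 genes of the table with a promoter and 8.09% of all 27025 genes in the promoter set. It was found in 4 of 10 pump genes and 2 of 17 autophagy genes. The longer TCACGTGA, which contains CACGTG and is likewise its own reverse complement, occurred in Atp6v1a, Atp6v0d1, Atp6v0e and Atg3, that is in 4 of 29 genes (13.8%) against 2.42% of the genes of the table. The promoters are written 5′ to 3′ on the strand of the gene with each CACGTG in capitals. That of Atp6v1a, the catalytic subunit of V1, lies at chr16:44139210-44139509 on the minus strand, that of Atp6v0d1, which links the rotor to V1, at chr8:105566015-105566314 on the minus strand, and that of Atp6v0e, a small membrane subunit, at chr17:26676146-26676445 on the plus strand. The promoter of Atp6v0b, a proteolipid of the rotor ring, lies at chr4:117887280-117887579 on the minus strand with 2 matches, that of Atg3, the enzyme that transfers ATG8 proteins to lipid, at chr16:45158579-45158878 on the plus strand with 2, that of Atg5, which forms the conjugating enzyme with Atg12, at chr10:44268089-44268388 on the plus strand with 1, and that of Lamp1, a glycoprotein of the lysosome membrane, at chr8:13158911-13159210 on the plus strand with 4.
Atp6v1a: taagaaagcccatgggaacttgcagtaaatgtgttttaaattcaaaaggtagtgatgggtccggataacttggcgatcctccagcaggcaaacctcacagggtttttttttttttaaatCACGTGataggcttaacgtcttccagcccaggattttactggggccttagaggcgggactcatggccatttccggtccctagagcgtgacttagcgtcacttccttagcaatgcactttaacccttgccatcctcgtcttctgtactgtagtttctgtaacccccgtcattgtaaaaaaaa
Atp6v0d1: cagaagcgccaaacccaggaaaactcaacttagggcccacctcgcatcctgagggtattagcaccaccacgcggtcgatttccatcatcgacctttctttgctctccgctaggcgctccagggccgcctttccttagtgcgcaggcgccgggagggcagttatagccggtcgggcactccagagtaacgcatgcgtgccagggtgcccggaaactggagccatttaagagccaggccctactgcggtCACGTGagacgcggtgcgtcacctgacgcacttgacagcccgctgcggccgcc
Atp6v0e: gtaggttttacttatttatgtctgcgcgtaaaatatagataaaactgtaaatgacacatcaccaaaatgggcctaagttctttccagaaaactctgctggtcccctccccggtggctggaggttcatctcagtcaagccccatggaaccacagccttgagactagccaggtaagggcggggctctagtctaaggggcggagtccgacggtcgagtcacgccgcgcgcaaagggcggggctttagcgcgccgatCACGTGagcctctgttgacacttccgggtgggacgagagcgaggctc
Atp6v0b: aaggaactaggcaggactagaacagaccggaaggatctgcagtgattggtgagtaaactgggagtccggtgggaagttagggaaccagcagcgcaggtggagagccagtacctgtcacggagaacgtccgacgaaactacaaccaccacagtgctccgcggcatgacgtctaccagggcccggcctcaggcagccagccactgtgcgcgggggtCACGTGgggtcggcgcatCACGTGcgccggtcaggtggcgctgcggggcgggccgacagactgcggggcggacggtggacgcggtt
Atg3: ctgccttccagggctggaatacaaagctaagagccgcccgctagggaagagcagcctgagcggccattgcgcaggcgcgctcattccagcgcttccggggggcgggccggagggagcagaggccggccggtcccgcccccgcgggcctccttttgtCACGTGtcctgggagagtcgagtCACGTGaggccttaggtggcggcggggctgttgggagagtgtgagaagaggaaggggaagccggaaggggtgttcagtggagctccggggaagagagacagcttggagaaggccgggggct
Atg5: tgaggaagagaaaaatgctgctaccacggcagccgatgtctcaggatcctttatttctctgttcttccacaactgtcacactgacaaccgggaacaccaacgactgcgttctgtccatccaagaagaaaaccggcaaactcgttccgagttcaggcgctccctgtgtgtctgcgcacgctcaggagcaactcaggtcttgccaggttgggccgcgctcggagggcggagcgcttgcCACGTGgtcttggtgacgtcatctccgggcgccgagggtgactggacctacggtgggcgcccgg
Lamp1: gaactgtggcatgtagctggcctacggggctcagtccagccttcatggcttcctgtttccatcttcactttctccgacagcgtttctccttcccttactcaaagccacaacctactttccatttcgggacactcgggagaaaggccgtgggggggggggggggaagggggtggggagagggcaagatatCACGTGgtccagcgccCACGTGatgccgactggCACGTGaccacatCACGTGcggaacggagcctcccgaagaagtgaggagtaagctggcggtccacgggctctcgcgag
In Atp6v1a the match began 131 bases before the start and in Atp6v0d1 it ended beyond the start, while in Atp6v0e it began at base 4 of the transcript. These are matches of letters on another genome build than that of the reads, and binding was not measured. The carriers of the longer motif did not vary alike over the mice, since the log2 values of Atp6v1a and Atp6v0d1 rose together (Pearson r = 0.65, n = 60 mice) while those of Atp6v1a and Atp6v0e ran in opposite directions (r = -0.62).

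The recovered reads per mouse ranged from 4913122 to 21872744, with 17 shallow libraries of at most 9507322 (8 responders and 9 non-responders) and 43 deeper ones of at least 12051239. Libraries also differed in 3′ bias, the excess of reads at the 3′ ends of transcripts, given here as a log2 measure over 4030 genes. On this measure 4 mice stood apart, number 63 at 1.53, number 5 at 0.93, number 4 at 0.70 and number 62 at 0.50. All shallow libraries except that of mouse 26 came from mice 41 to 56. The bias was -0.33 to -0.012 in the shallow libraries (median -0.26) and -0.16 to 1.53 in the deeper ones (median 0.0092). Depth and bias therefore go together here and are not separate checks. Of the striatal markers 8 of 10 were in the table, and their sum was 61613 to 141205 normalised reads. Tbr1, a marker of cortical neurons, was also present in every library, at 219 to 3089 normalised reads. In tissue RNA of this kind, fewer cells of a type and less RNA per cell cannot be told apart.

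Gene levels are given per kb of annotated exon, so that long and short genes can be set side by side, as mean ± SD over the 60 mice. The pump genes had a median of 1414 normalised reads per kb, the autophagy genes 334 and all genes with a known length 190. Because a large share of the reads lay in the last exon row, as described further on, a level per length may depend on the annotated length of the last exon. Reads per base along the transcripts were not measured. The highest level of all belonged to Gabarapl1, an ATG8 protein, and the lowest to Ulk4, a kinase relative thought to lack catalytic activity.

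**Figure D1:**
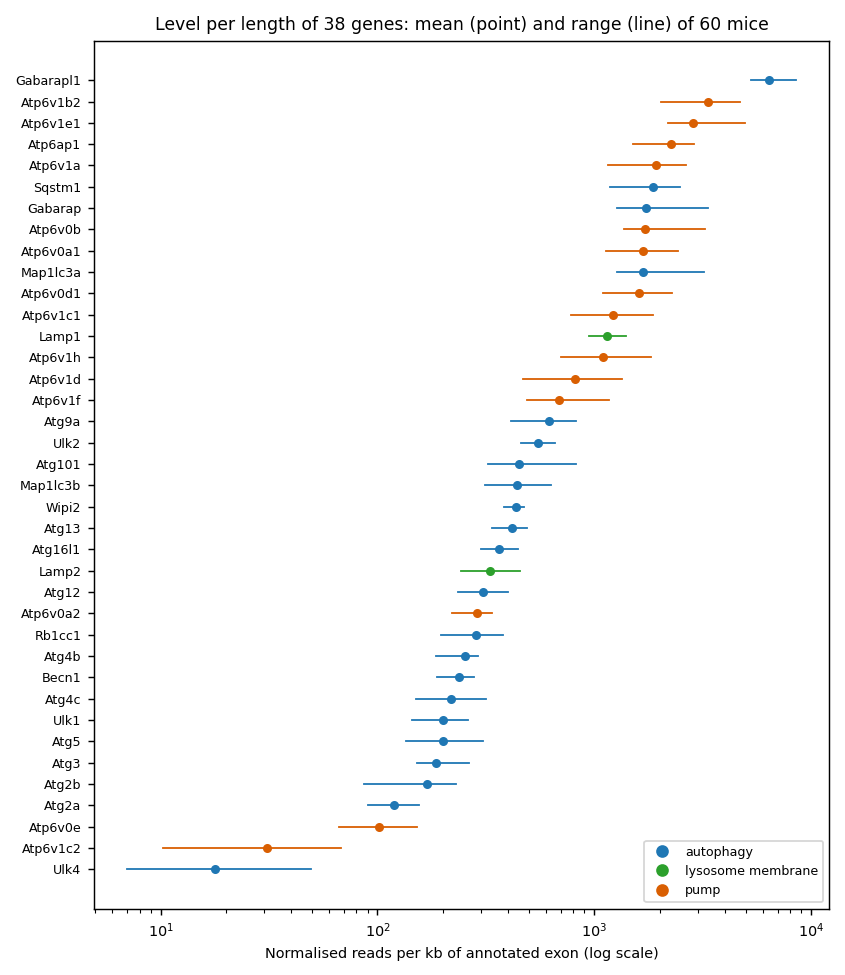
Level of each of the 38 genes per kb of annotated exon, on a log axis; the point is the mean of 60 mice, the line runs from the lowest to the highest mouse, and colour marks the autophagy, lysosome membrane and pump genes. Gabarapl1 stands highest at 6409 normalised reads per kb and Ulk4 lowest at 17.7, and most pump genes lie above most autophagy genes.

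Among the initiation genes, Ulk2 had 551 ± 40.3 (SD, n = 60) normalised reads per kb and its close relative Ulk1 200 ± 27.4, and in every mouse Ulk2 was the higher of these, by 2.01 to 3.83 times with a median of 2.77. Rb1cc1, known as FIP200 and the scaffold of the ULK1 complex, had 285 ± 36.2, Atg13, its regulatory subunit, 417 ± 37.96, and Atg101, which stabilises Atg13, 449 ± 80.1. Becn1, the core of the lipid kinase complex, had 237 ± 20.4. Wipi2, which reads the lipid mark, had 436 ± 18.8 and was the steadiest of all 38 genes, with a coefficient of variation over mice of 4.32%, against a median of 16.3% for all genes tested. Atg4b, a protease that prepares ATG8 proteins, followed at 6.77% and Ulk2 at 7.30%. The lipid transfer proteins Atg2a and Atg2b had 119 ± 13.7 and 169 ± 30.5 normalised reads per kb, and Atg9a, the membrane protein that scrambles lipid beside them, had 617 ± 108.

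The ATG8 family was dominated by one gene. Gabarapl1 made up 54.1% to 67.6% (median 63.05%) of the summed level per length of the 4 family members in the table, Gabarap 13.4% to 21.7% (median 16.4%), Map1lc3a 13.3% to 20.51% (median 16.4%) and Map1lc3b, the form most used as a marker of autophagosomes, 3.37% to 5.34% (median 4.32%). The low share of Map1lc3b depends on its annotated length of 5182 bases. Without division by length, Map1lc3b averaged 2288 normalised reads, Gabarap 2339 and Map1lc3a 1860. The order of Gabarapl1 over each of the others held in every mouse, whereas Gabarap at 1731 ± 359 and Map1lc3a at 1672 ± 324 normalised reads per kb differed by less than the spread between mice. Sqstm1, the p62 receptor, had 1866 ± 285. The conjugation genes were much lower, with Atg16l1 at 363 ± 28.7, Atg12 at 305 ± 35.6, Atg5 at 200 ± 30.1 and Atg3 at 187 ± 22.2. Gabarapl2, Atg7 and Atg10 were not analysed here. Of the lysosome membrane genes, Lamp1 had 1138 ± 92.3 and Lamp2 330 ± 40.8 normalised reads per kb, and Lamp1 exceeded Lamp2 by 2.46 to 4.97 times in every mouse.

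Of the V1 sector, Atp6v1b2, the brain form of the B subunit, had 3325 ± 531 normalised reads per kb and Atp6v1a, with which it forms the catalytic ring, 1919 ± 355; their ratio of Atp6v1a to Atp6v1b2 lay between 0.426 and 0.728 (median 0.580), with a coefficient of variation of 10.7% where those of the genes were 18.5% and 15.96%. Atp6v1e1, of the peripheral stalk, had 2856 ± 437, Atp6v1c1, which closes the stalk, 1224 ± 201, Atp6v1h, a regulatory subunit, 1100 ± 170, Atp6v1d, of the central rotor, 815 ± 151, and Atp6v1f, its neighbour, 689 ± 122. In the V0 sector the levels were 1707 ± 295 for the proteolipid Atp6v0b, 1680 ± 355 for Atp6v0a1, the neuronal form of the a subunit, 1603 ± 233 for Atp6v0d1 and 101.2 ± 19.7 for Atp6v0e. Atp6ap1, an accessory subunit needed to assemble the pump, had 2249 ± 351. Where paralogs were in the table, one form prevailed, Atp6v0a1 exceeding Atp6v0a2 (288 ± 25.2) by 3.601 to 9.37 times and Atp6v1c1 exceeding Atp6v1c2 (31.1 ± 14.2) by 16.2 to 144 times. The paralogs Atp6v1b1, Atp6v1e2, Atp6v0d2 and Atp6v0e2, all Atp6v1g forms and Atp6v0c were not analysed here.

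The members varied unequally between mice. Ulk4 had the highest coefficient of variation at 52.98%, followed by Atp6v1c2 at 45.5%, Atp6v0a1 at 21.1%, Gabarap at 20.7% and Atp6v0e at 19.5%. Ulk4 had 30.6 to 103 normalised reads in the deeper libraries (median 57.4) and 77.2 to 214 in the shallow ones (median 119). Its level moved with the depth range, with 3 deeper libraries above the lowest shallow one. On the log2 scale the shallow libraries were higher by 1.17, beyond the difference of 97.7% of all genes tested. Ulk4 also fell as the 3′ bias rose (r = -0.45, rho = -0.65), and depth and bias go together here. The part of either in its level was not tested. Atp6v1c2, at 17.0 to 112 normalised reads, had nearly the same median in deeper (44.9) and shallow libraries (48.01).

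Whether the phenotype groups differed was asked with limma on log2 values, with sex as a term and the Benjamini-Hochberg adjustment over all genes. None of the 38 genes was called at an adjusted p under 0.05, where 9 of 8535 genes, or 0.105%, were called. At an unadjusted p under 0.05 there was 1 member, Atp6v1d, and 554 of all genes (6.49%). edgeR and DESeq2 on the recovered reads called none of the members either, with 7 and 23 genes called in all. Each had 1 member at an unadjusted p under 0.05, where 6.51% of all genes were under it in edgeR and 6.78% in DESeq2. The log2 difference of responders from non-responders was above 0 for 18 of the 38 genes and had a median of -0.0036, against -0.0033 over all genes, and 36 of the 38 differed by less than 0.1. For 35 of the 38 genes the 95% interval lay within a change of 1.2-fold in either direction, so larger differences would lie outside it; the half-width of the interval was 0.11 at the median, 0.042 for Wipi2 and 0.33 for Ulk4.

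**Figure D2:**
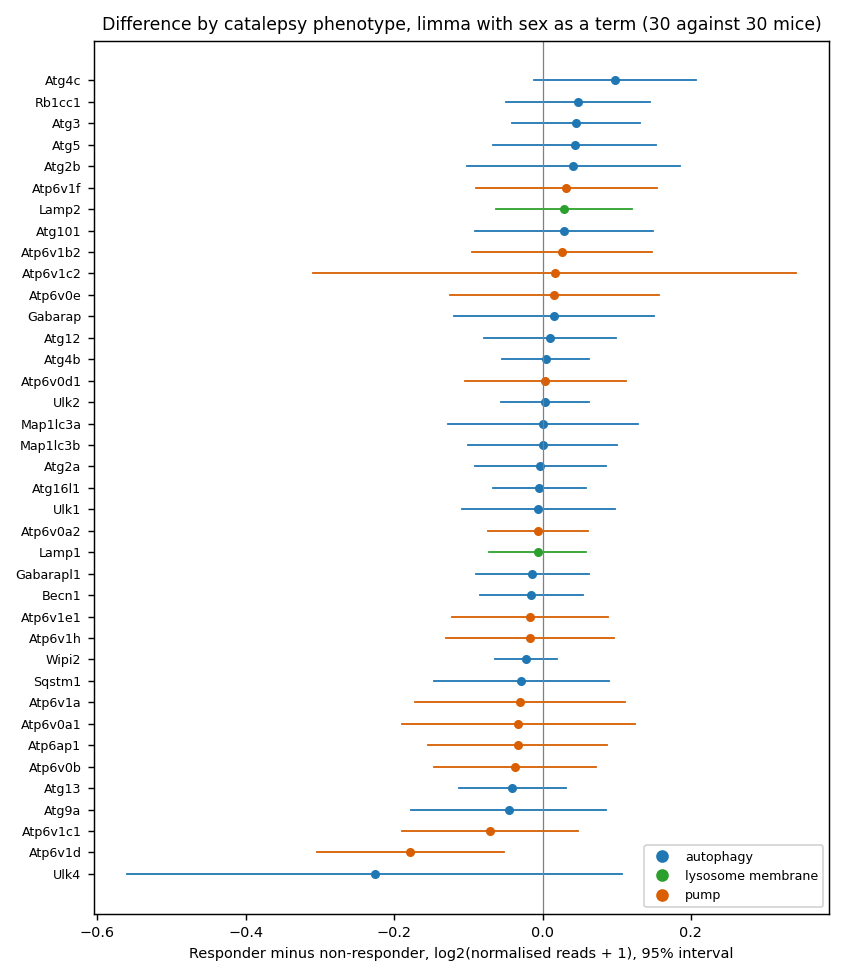
Difference of responders from non-responders in log2(normalised reads + 1) for each of the 38 genes, with the 95% interval of the limma fit with sex as a term; 30 mice of each phenotype. The intervals of 37 genes cross 0 and that of Atp6v1d, at -0.18, does not, although it missed the adjusted threshold.

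Atp6v1d came closest to a difference. Its normalised reads were 2371 to 4899 in female non-responders (median 3157), 2203 to 4739 in female responders (median 2811), 2124 to 3941 in male non-responders (median 3093) and 1724 to 3639 in male responders (median 2742). The ranges overlapped almost throughout, with the median of the responders lower in both sexes. The log2 difference was -0.18 (SE 0.063, a fold of 0.884, limma adjusted p = 0.391). It was -0.17 in the deeper and -0.23 in the shallow libraries and stayed from -0.17 to -0.20 when mouse 63, mouse 42 or the 4 mice of high 3′ bias were left out or other tools were used. With the 3′ bias as a term in the fit it was -0.21 (SE 0.044) and was called (limma adjusted p = 0.00883), in a fit that called 58 genes in all. Atp6v1d itself followed the 3′ bias over mice (r = 0.65, rho = 0.44, n = 60), and the mouse with the highest value, number 5, had the second highest bias.

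The next members in order of p were further from the threshold. Atg4c, the relative of Atg4b, was 0.10 higher in responders on the log2 scale (SE 0.055, limma adjusted p = 0.891), with medians of 625 and 664 normalised reads in female non-responders and responders and of 678 and 758 in males. Ulk4 had a difference of -0.23 (SE 0.17), Atp6v1c1 of -0.070 (SE 0.059) and Atg13 of -0.041 (SE 0.036), each with a limma adjusted p of 0.999.

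**Figure D3:**
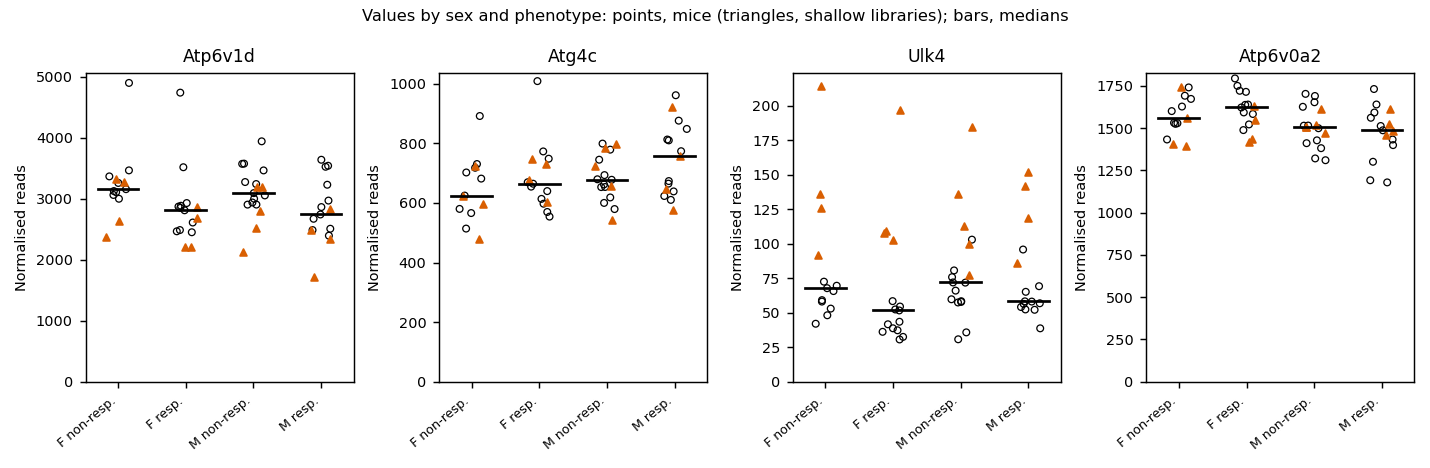
Normalised reads of Atp6v1d, Atg4c, Ulk4 and Atp6v0a2 in each mouse by sex (F, M) and phenotype; circles are deeper and triangles shallow libraries, and bars are group medians. The groups overlap for all 4 genes, and the shallow libraries lie high for Ulk4 in every group.

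By sex, again none of the members was called, with 3 of 8535 genes, or 0.0351%, called in all by limma, and 1 member and 174 genes had an unadjusted p under 0.05. Neither edgeR nor DESeq2 called a member by sex, with 3 genes called in all in each. There were 2 members at an unadjusted p under 0.05 in each, where 171 of the 8535 genes were under it in edgeR and 182 in DESeq2. Females were higher for 30 of the 38 genes, with a median log2 difference of 0.031 against 0.010 over all genes. Without mouse 63, a female, it was 26 genes, with a median of 0.0150 against 0.0115 over all genes. The share of all genes higher in females was not taken, so these counts are no result about the members. The smallest p belonged to Atp6v0a2, the a subunit of the Golgi and endosomes, with a median of 1557 and 1622 normalised reads in female non-responders and responders against 1508 and 1487 in males (log2 difference 0.095, SE 0.034, limma adjusted p = 1.00). Atg4c (-0.11, SE 0.055), Atp6v1c1 (0.097, SE 0.059), Atg3 (0.055, SE 0.043) and Atp6v0d1 (0.065, SE 0.055) followed. For the interaction of sex and phenotype, 0 of 8535 genes (0%) and none of the members were called by limma, edgeR or DESeq2, and 48 genes and no member had an unadjusted p under 0.05 in limma. The smallest p values were those of Atg16l1 (0.081, SE 0.063), Lamp1 (0.083, SE 0.065), Atg3 (-0.11, SE 0.086), Wipi2 (-0.047, SE 0.042) and Ulk4 (-0.36, SE 0.33), given as the log2 response in females minus that in males.

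Genes of the same pathways outside the rule gave the same count. Of 39 listed regulators, such as Mtor, Tfeb and Pik3c3, 33 were in the table, and of 43 listed lysosome enzymes and pump partners 30 were; none of them was called for phenotype, sex or interaction by limma. At an unadjusted p under 0.05 for phenotype there were 3 of the 33 regulators and 1 of the 30 lysosome genes, where 6.49% of all genes were under it. They were Fundc1, a receptor for mitochondria (log2 difference 0.21, SE 0.071), Mitf, a relative of Tfeb (0.14, SE 0.055), Prkaa1, a catalytic subunit of AMP kinase (0.084, SE 0.035), and Slc38a9, an amino acid sensor of the lysosome (0.19, SE 0.078), none of which passed the adjusted threshold (limma adjusted p of 0.343 or more).

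Coexpression of the members was then compared over the 60 mice as the Pearson correlation of log2 values. The median correlation was 0.099 (jackknife SE over mice 0.049) over the 231 pairs of autophagy genes, 0.22 (SE 0.11) over the 91 pairs of pump genes and 0.16 (SE 0.055) over the 308 pairs of an autophagy with a pump gene, while the median over all pairs of genes was 0.0017. Whether the medians of pump and autophagy genes differ was not tested; that of the pump genes was 0.15 without mouse 63 and 0.076 without the 4 mice of high 3′ bias, where that of the autophagy genes was 0.094 and 0.11. A correlation of at least 0.7 was found for 18.7% of the pump pairs, 3.90% of the autophagy pairs, 6.82% of the pairs between them and 2.83% of all pairs of genes.

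From the correlations, 2 patterns are described that crossed the division into autophagy and pump. They hold 16 of the 38 genes, and the other members were assigned to neither. Atp6v1h, one of those, had r = 0.79 with Atp6v1e1 of the second pattern. The 64 pairs of a gene of the first with one of the second had an r of -0.61 to 0.72 (median 0.11). In the first, Sqstm1, Atp6ap1, Atp6v1b2, Atp6v1a, Atp6v0a1, Atp6v0d1, Atp6v1c1 and Atg9a rose and fell together, with correlations of 0.55 to 0.92 (median 0.79) over their 28 pairs. These 8 genes were put together from their correlations, so that the range is a description. The highest single values joined a cargo receptor to a pump subunit, Sqstm1 with Atp6ap1 (r = 0.92), and a pump subunit to its accessory protein, Atp6v1b2 with Atp6ap1 (r = 0.92), where Atp6ap1 was the gene most correlated with Atp6v1b2 among all genes tested. Atg9a and Atp6v0a1 had r = 0.92, with Atp6v0a1 at rank 3 among all genes for Atg9a and Atg9a at rank 22 for Atp6v0a1. Atp6ap1 stood at rank 5 for Sqstm1 and Sqstm1 at rank 9 for Atp6ap1, behind genes outside the rule. The ratio of Sqstm1 to Atp6ap1 per length had a coefficient of variation of 6.28%, while those of the genes themselves were 15.3% and 15.6%.

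Within the 43 deeper libraries the 28 correlations had a median of 0.76, within the 17 shallow ones 0.89, without mouse 63 0.82 and without mouse 42 0.76. After a linear fit on the 3′ bias the median was 0.83, and after a fit on the bias and the summed cortical markers 0.68. Several of the 8 genes rose with the cortical marker sum over mice, among them Atp6v0a1 (r = 0.71), Atp6v1a (0.70), Atg9a (0.68), Atp6v1b2 (0.61) and Atp6v0d1 (0.58). All 8 had a negative r with the astrocyte marker sum, from -0.39 for Atp6v1a to -0.69 for Sqstm1, and with the oligodendrocyte marker sum, from -0.32 for Atp6v1c1 to -0.69 for Atp6v0a1. With the striatal marker sum their r ran from -0.035 for Atp6v1a to 0.28 for Sqstm1. The astrocyte sum covered 5 of 7 listed markers and was largely Slc1a2 (mean 98538 normalised reads). It was 92999 to 168649 normalised reads in non-responders and 72340 to 170006 in responders. The oligodendrocyte sum, over 6 of 7, was 92015 to 248698 and 97692 to 269550. The part of these cell types in the correlations was not tested beyond the fit on the cortical sum. The cortical sum held 2 of 6 listed markers, Tbr1 (mean 1612) and Nptx1 (mean 5676). It had a median of 7236 normalised reads in non-responders (3551 to 13034) and 6488 in responders (1890 to 15110). Ulk1 also rose with it (r = 0.73), whereas Atp6v1c2 (-0.64) and Atp6v0e (-0.64) fell. Of the 38 genes, 8 had an r of at least 0.5 with the cortical sum, or 5 pump and 3 autophagy genes, against 12.01% of all genes tested.

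In the second pattern, Gabarap, Gabarapl1, Map1lc3a, Atg5, Atg101, Atp6v0b, Atp6v1e1 and Atp6v1f had correlations of 0.39 to 0.82 (median 0.64), likewise chosen from their values. It moved with the 3′ bias of the libraries, with r = 0.83 for Atp6v0b, 0.78 for Atg101, 0.77 for Atp6v1e1, 0.76 for Gabarap and 0.72 for Gabarapl1. For Map1lc3a, Atg5 and Atp6v1f, r was 0.70, 0.59 and 0.58. The rank correlations with the bias were lower, and 4 mice stand apart on this measure. In the same order, rho was 0.50, 0.54, 0.55, 0.44, 0.48, 0.39, 0.455 and 0.22. The median of the 28 correlations was 0.20 after a linear fit on the bias, 0.64 in the deeper and 0.23 in the shallow libraries, 0.54 without mouse 63 and 0.64 without mouse 42. Some of these genes also followed the microglia marker sum, Gabarap at r = 0.75, Atg5 at 0.67, Atp6v0b at 0.57 and Atp6v1f at 0.51, and the oligodendrocyte sum, Gabarap at 0.65 and Atg5 at 0.54. The microglia sum, over 5 of 8 listed markers, was 3418 to 8122 normalised reads in non-responders and 3181 to 7541 in responders, and its part in the correlations was not tested. The long genes Atg2b (r = -0.71, rho = -0.57), Rb1cc1 (r = -0.58, rho = -0.31) and Atg2a (r = -0.53, rho = -0.42) ran against the bias. An r of at least 0.5 with the bias was found for 12 of the 38 genes and of -0.5 or below for 3, against 22.6% and 24.2% of all genes tested. Among the 12 were Atp6v1h (r = 0.66), Atp6v1d (0.65), Map1lc3b (0.59) and Atg3 (0.59), which lie outside the second pattern. The most opposed pair of all, Gabarap and Atg2b, had r = -0.87, and after the fit on the bias still -0.71. With the bias fitted, the median correlation of the pump genes was 0.039, that of the autophagy genes 0.076 and that between them 0.13.

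**Figure D4:**
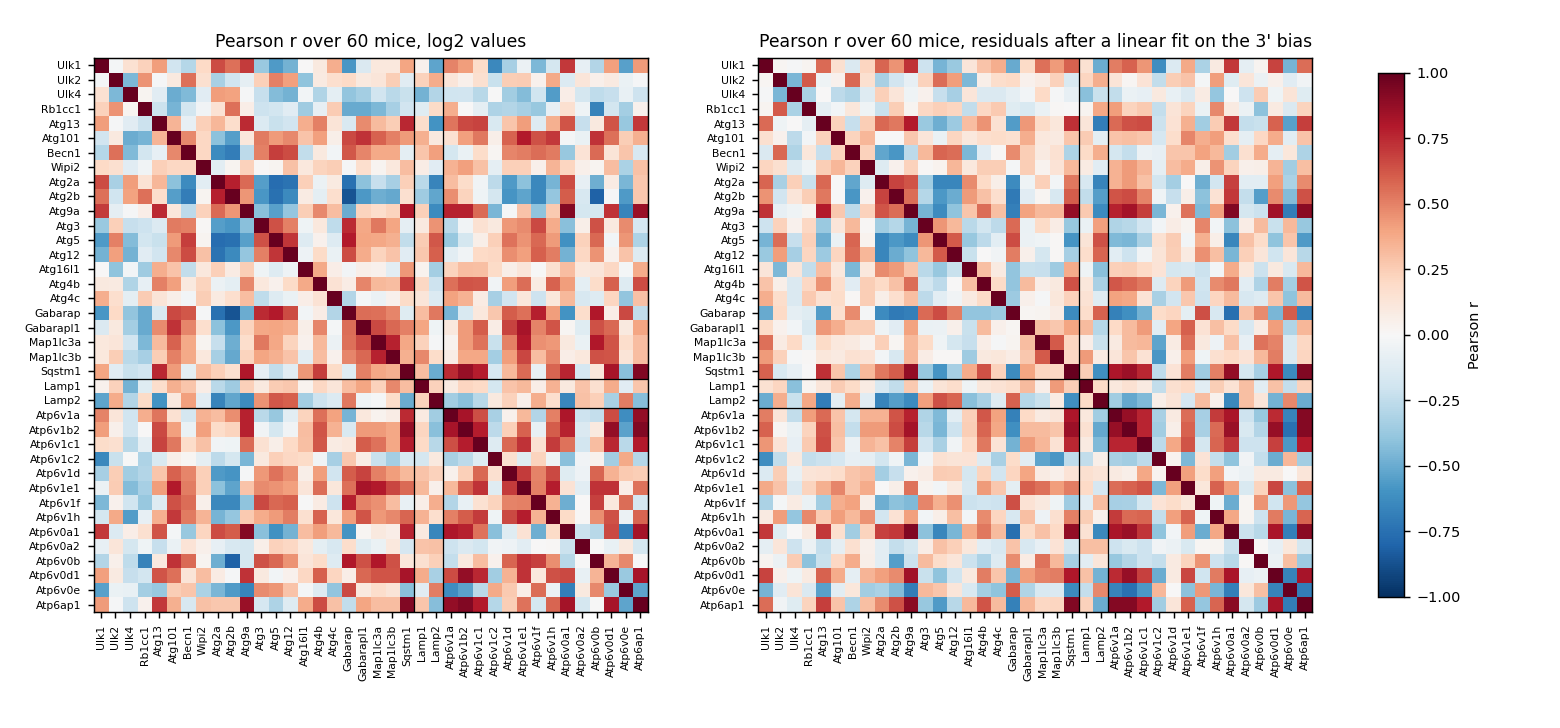
Pearson correlation over 60 mice for every pair of the 38 genes, ordered by role, from the log2 values (left) and from the residuals after a linear fit on the 3′ bias (right); black lines part the autophagy, lysosome membrane and pump genes. The block of Sqstm1 and Atg9a with Atp6v1a, Atp6v1b2, Atp6v1c1, Atp6v0a1, Atp6v0d1 and Atp6ap1 is red on both sides, and the opposition of Gabarap to Atg2b is blue on both.

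The pairs listed were partners known to bind or act on each other, with a cross pair of an autophagy and a pump gene added. Of the 10 pairs, 6 were in the table. Their correlations were tested against 0 by two-sided permutation with 100000 resamples, adjusted over the 12 tests of both coefficients. Such a test does not compare a pair with other genes. Of all pairs of genes, 2.83% had an r of at least 0.7 and 10.6% an r of -0.5 or below. The p values of a depth range or after the fit on the bias were adjusted over the 6 pairs of that setting. Atp6v1a and Atp6v1b2 had r = 0.82 and rho = 0.82 (permutation, p = 1e-05 for each, the smallest that this number can give, adjusted p = 2.4e-05). Leaving out mice 16 and 42, the farthest from the median of Atp6v1a, gave r = 0.79, the deeper libraries 0.77, the shallow ones 0.91 and the fit on the bias 0.87. Atg5 and Atg12, which are joined covalently, had r = 0.71 and rho = 0.71 (permutation, adjusted p = 2.4e-05 for each). Their r was 0.67 without mice 55 and 63, 0.75 in the deeper libraries, 0.61 after the fit on the bias and 0.32 in the 17 shallow libraries, where it was not called (permutation, adjusted p = 0.25). Among all genes tested, Atg5 stood at rank 68 for Atg12, and Atg5 itself had a higher r with Gabarap (0.79). The cross pair of Gabarap and Atp6v1a ran in opposite directions, with r = -0.47 (permutation, adjusted p = 0.00028) and rho = -0.58 (permutation, adjusted p = 2.4e-05). It was -0.54 without mice 5 and 63, -0.65 in the deeper and -0.63 in the shallow libraries and -0.68 after the fit on the bias.

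The remaining pairs were weaker. Sqstm1 and Map1lc3b, which bind each other, had r = 0.36 and rho = 0.44 (permutation, adjusted p = 0.00711 and 0.000754). The r was 0.27 in the 43 deeper and 0.24 in the 17 shallow libraries, of the same sign but not called in these smaller sets (permutation, adjusted p = 0.119 and 0.343), and 0.21 after the fit on the bias (permutation, adjusted p = 0.172); without mice 29 and 42 it was 0.38. Ulk1 and its scaffold Rb1cc1 had r = 0.23 and rho = 0.17 (permutation, adjusted p = 0.0959 and 0.203), with r = 0.18 without mice 60 and 63, 0.14 without mouse 63 alone and 0.025 after the fit on the bias. It was 0.14 in the deeper and 0.57 in the shallow libraries (permutation, adjusted p = 0.439 and 0.0329). Lamp1 and Lamp2 had r = 0.23 and rho = 0.22 (permutation, adjusted p = 0.0959 and 0.0995), and r = 0.16 without mice 46 and 62, 0.091 in the deeper and 0.45 in the shallow libraries.

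**Figure D5:**
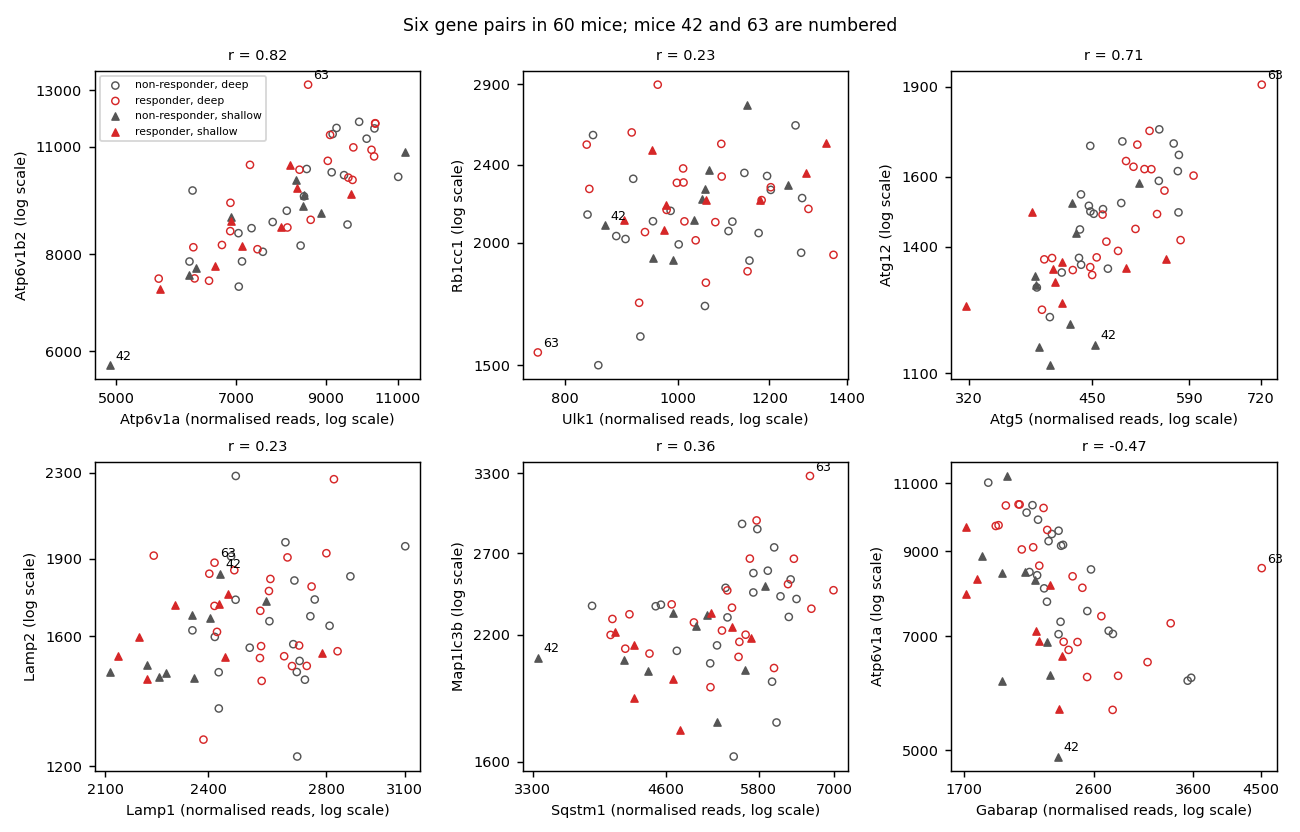
Normalised reads of the 6 tested gene pairs in 60 mice, both axes logarithmic; red marks responders, grey non-responders, open circles deeper and filled triangles shallow libraries, and mice 42 and 63 are numbered. Atp6v1a and Atp6v1b2 rise together (r = 0.82), Gabarap and Atp6v1a run in opposite directions (r = -0.47), and neither phenotype forms a cloud of its own.

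Single mice stood out in many members at once. Mouse 63, a female responder with the highest 3′ bias, had the highest value for 16 of the 38 genes, among them 8 pump genes with Atp6v1b2 at 13225 normalised reads, against 24.8% of all genes tested. Mouse 42, a male non-responder, had the lowest value for 12 of the 38, of which 7 were pump genes, against 7.56% of all genes tested. In this library Atp6v1a was at 4908 where the median was 8288, Atp6v1b2 at 5758 where it was 9268, and Sqstm1 at 3341 where it was 5363. It had the second lowest number of reads, 5047110, and the fourth lowest cortical marker sum, 3551; their part in the low values was not tested.

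In the networks of the study, connectivity was the sum of absolute correlations raised to the power of 6 over all 9066 genes, with coexpression from gene values, cosplicing from cosine distances and CoSplicEx from Canberra distances between the exon values of mice. The median percentile of the members was 58.5 (SE 3.5 over 10 blocks of mice left out) for coexpression, 54 (SE 8.7) for cosplicing and 53.1 (SE 2.4) for CoSplicEx. There were 3, 3 and 2 of the 38 genes in the top 10% of the respective network. These counts moved with the libraries used, to 3, 1 and 3 without mouse 63 and to 8, 5 and 6 in the shallow libraries. Gabarap was the most connected in coexpression, at a percentile of 99.9, followed by Atg2b at 97.8, Atp6v0b at 95.1, Atg5 at 86.4 and Atp6v0a1 at 82.3. In cosplicing Rb1cc1 led at 96.4, before Atp6v1a at 92.1, Atg9a at 91.3, Atp6v1b2 at 88.2 and Ulk2 at 84.8. In CoSplicEx Atg2b stood at 98.9, Ulk2 at 95.8, Atp6v0a1 at 88.8, Rb1cc1 at 88.0 and Atg2a at 87.0. Without mouse 63, Rb1cc1 was at 94.8 and Atp6v1a at 89.8 in cosplicing and Gabarap at 99.4 in coexpression.

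At the exon level, reads lay largely in the last exon row. It held more than 50% of the exon reads in 24 of the 38 genes, against 50.3% of the 7991 genes with several rows. Its median share was 53.2% for autophagy and 55.4% for pump genes, against 50.2% over those 7991 genes. In 29 of the 38 genes it was the largest row. The share of all genes with this trait was not taken, so that count is no result about the members. In Map1lc3b the last row held 99.4% ± 0.23 (SD, n = 60) of the exon reads, in Gabarapl1 94.5% and in Atg12 91.9%, whereas it held 17.3% in Rb1cc1 and 14.4% in Atp6v1f, where the first row held 85.3%. The share of the last row rose with the 3′ bias, at r above 0.5 in 28 genes. In Atg2b it was 33.4% to 81.9% (r = 0.95) and in Rb1cc1 10.8% to 41.3% (r = 0.91), both with mouse 63 the highest. Such a rise is partly built in, because the bias is the slope of exon values toward the last row. The same count over all genes was not taken, so the 28 genes are no result about the members.

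Lamp2, whose transcripts end in alternative last exons, had its reads in several terminal rows. The row starting at 35772684 of chromosome X (NCBI m37) held 48.6% of the exon reads (41.1% to 55.6%), the row at 35758239 5.77% (3.63% to 10.6%) and the row at 35754534 18.3% (9.21% to 23.8%). The first of these kept the largest share in every mouse. The share of the row at 35754534 had an r of 0.04 with the 3′ bias (n = 60). Its median was 19.3% in deeper and 16.3% in shallow libraries, and a link to depth was not tested.

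Exon usage by phenotype was tested with limma's diffSplice, each exon row against the others of its gene. Of 340 exon rows in 35 of the 38 genes none was called, where 88 of 66690 rows, or 0.132%, were called in all, and 6 member rows (1.76%) had an unadjusted p under 0.05, against 2.50% of all rows. The smallest p was that of the first row of Atg4c, which averaged 50.2 normalised reads and was 0.29 higher in responders on the log2 scale relative to the rest of the gene (limma adjusted p = 0.794). The first rows of Ulk2 (-0.23), Lamp1 (-0.19) and Gabarapl1 (-0.26) and the fourth row of Atp6v1c1 (-0.15) came next, each with a limma adjusted p of 1.00. The first row of Lamp1 averaged 23.4 normalised reads and varied from 0.207% to 3.78% of the exon reads between mice.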

How the data were processed

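PolyA RNA-Seq of striatum from 60 mice was analysed, 1 library per mouse. The gene values deposited by the authors are a signal, namely reads on Ensembl 59 gene models (union exon) corrected with edgeR upper quartile factors. Each mouse's values were multiples of a common step (100% within 0.1 of a whole read, largest deviation 6.53e-05), so reads were recovered for the count tests. The exon values deposited by the authors are a score, the corrected exon counts rounded to integers. The submitters' processing notes name Bowtie 0.12.7, edgeR 3.4.2 and R 3.0.2, and the paper the NCBI m37 genome. Depth was 4913122 to 21872744 recovered reads per mouse (median 14520042), and errors are those between mice. No pair of mice agreed within sampling noise (smallest chi-square per gene 3.04).

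Symbols, lengths and strands were looked up in GENCODE M21, which held 97.7% of the identifiers. Phenotype, sex and their interaction were tested with limma 3.58.1 in R 4.3.3, trend option, for genes with a mean of 10 or more and a pseudocount of 1 before the log2, with edgeR 4.0.16 and DESeq2 1.42.0 on recovered reads as alternatives, and exon usage with diffSplice on exon rows averaging at least 10. Thresholds were an adjusted p of 0.05. On simulated phenotype data, limma recovered 94.5% of 200 genes changed by 0.5 on the log2 scale, with 13 false calls among 8532 genes, and the exon test 91.5% of 200 changed rows, with 16 calls in unchanged genes among 67559 rows. Both simulations drew the noise of each gene or row independently, without a shared 3′ bias. For exon rows the spread was also capped and only rows of high mean in genes with several rows were changed. Recovery of exon rows with few reads was therefore not measured. Correlations and networks used Python 3.11.15, numpy 2.4.6 and scipy 1.17.1. Promoters were taken from RefSeq. The 3′ bias of a mouse is the median, over genes averaging at least 500 with at least 5 exon rows, of the slope of its log2 exon values from the first to the last row, relative to the mean of all mice.

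The members and lists were chosen with earlier results of these data known. Named were the ATG8 family, Sqstm1, Becn1, the ULK genes, Rb1cc1, the LAMP genes, Atp6ap1, pump paralogs, the 5 members or exon rows of smallest p per comparison, the 5 of highest and 3 of lowest variation, and the 5 most connected per network. Others were named for their role or after their values were seen. The labels do not say that mice were separate litters or batches. Alternatives covered the filter, pseudocount, scaling, test, depth range, 3′ bias, single mice and terms of the fit. A listed cell type marker is not reported here and was left out of the marker sums.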

Additional observations from a re-analysis of the deposited data

How the results depend on the processing

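Of 125 recomputed main values over 16 results, 113 kept their side of the threshold or moved by less than 1 SE. The member count for phenotype was 1 with the 3′ bias as a term (Atp6v1d, -0.21, adjusted p = 0.00883), 0 in every other fit. The median correlation of the pump genes was 0.076 without mice 63, 5, 4 and 62, 0.039 after a fit on the 3′ bias and 0.085 after a fit on the bias and the cortical sum, an alternative chosen after seeing the data, which gave 0.0098 for autophagy genes and 0.0545 between both; the cause was not tested. No filter left these medians as they were, since all members average at least 10. The coexpression percentile was 62.9 in the shallow libraries only, which hold fewer samples. Among pairs, Ulk1 and Rb1cc1 reached 0.57 (adjusted p = 0.0329) and Atg5 and Atg12 0.32 (adjusted p = 0.25) in the shallow libraries, and Sqstm1 and Map1lc3b had 0.27 in the deeper, 0.24 in the shallow libraries and 0.21 after the bias fit, all by permutation and adjusted over the 6 pairs of a setting. Of 200 recomputed values of single genes, 3 changed sign, all in the shallow libraries only, where the sex difference of Atp6v0a2 was -0.0069 and the interactions were -0.024 for Atg16l1 and 0.038 for Atg3. Genes called for phenotype over the whole table were 58 with the bias as a term, 23 by DESeq2, 20 with a depth term, 14 with TMM scaling, 3 in the deeper and 0 in the shallow libraries (limma, 160 at an unadjusted p under 0.05), against 9; exon rows of members were 0 in every fit. No paired analysis was possible because no mice share a number. Ulk4 and Atp6v1c2 had the fewest recovered reads of the members, 30 and 10 in their lowest mouse, and the effect of depth on them was not tested.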

Other observations

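Genes outside the rule that followed single members most closely over the 60 mice, looked up after the values were seen, included some with a known link to the same pathways. Those given here were picked from the most correlated genes of all 38 members, and how many have such a link was not counted. Others as close were Srp14 for Gabarap (r = 0.94) and Asns for Atp6ap1 (r = 0.95). Wdfy3, an adaptor that brings protein aggregates to autophagosomes, was the gene most correlated with Atg2b (r = 0.95, and 0.92 after a linear fit on the 3′ bias). Vma21, an assembly factor of the pump, was the gene most correlated with Lamp2 (r = 0.80, and 0.80 after that fit). App, the amyloid precursor protein, was first for Atg9a (r = 0.94 and 0.94), and Clstn1, an adaptor of axonal transport, for Atp6v0a1 (r = 0.95 and 0.96). Each is the highest value over all genes tested, so the size of r is a description.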
